A study of Mus musculus with 8 samples.

Results

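The 10 genes described here are members of the BCL2 family, the proteins that decide whether the outer membrane of the mitochondrion is kept closed or is opened to start cell death. They are the survival genes Bcl2, Bcl2l1, Bcl2l2 and Mcl1, the BH3-only genes Bcl2l11, Bid, Bad and Bbc3, and the executioner genes Bax and Bak1. They were taken by symbol from a table of 53012 genes, and each was matched to 1 Ensembl identifier. Bulk RNA-seq libraries were made from the islets of each of 8 mice aged 17 months, 4 called βIgf1r and 4 called βIgf1rKD. All 8 mice carried Igf1r flox/flox, in which exon 3 of the gene for the IGF1 receptor is flanked by recombination sites. The βIgf1rKD mice were Ins1-CreERT2+/- and received 5 daily injections of tamoxifen at 0.075 mg/g body weight, whereas the βIgf1r mice were Ins1-CreERT2-/- and received corn oil. Islets were taken 7 days after the last injection. The genotype names Ins1, while the study's methods describe the driver of the Cre recombinase as a rat insulin promoter. Either promoter directs Cre to β-cells, so that other cells of the preparation are not its target. Cre, tamoxifen and any loss of Igf1r came together in the same mice, so that they cannot be told apart. Both sexes were present in each group and are not marked for each mouse.

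Survival members of the family hold BAX and BAK inactive on the mitochondrion. BH3-only proteins respond to stress or to the loss of growth factor signals, bind the survival members and release BAX and BAK, which then form pores through which cytochrome c leaves and caspases are switched on. Signals from the insulin and IGF1 receptors are known to act on this balance in β-cells, among others by phosphorylation of BAD through AKT and by FOXO factors, which can raise transcription of Bcl2l11 and Bbc3. Much of this control acts on the proteins, which RNA does not show.

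The feature that joins these genes is the BH3 motif, a short helix through which the members bind each other. A search of the longest coding sequence of each gene for a leucine or methionine codon, 3 codons of any kind, a glycine, alanine or serine codon, an aspartate codon and a codon for aspartate, glutamate or glycine found 1 match in each of 10 members of 10. The pattern was present in 10.2% of 21584 mouse protein-coding genes, so that a match alone is a description and not a binding site. The 9 codons from each match are shown because the BH3 motif is a feature that the 10 members share. The first codon and the codon of the invariant aspartate are in capitals. Sequences are from the GENCODE M21 transcripts on GRCm38, written 5′ to 3′ on the coding strand, and each lies in 1 exon.

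Bcl2, chr1:106712575-106712601, minus strand: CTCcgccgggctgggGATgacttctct
Bcl2l1, chr2:152829697-152829723, minus strand: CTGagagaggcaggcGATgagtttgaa
Bcl2l2, chr14:54884517-54884543, plus strand: ATGcgggctgctggaGACgagtttgag
Mcl1, chr3:95659436-95659462, plus strand: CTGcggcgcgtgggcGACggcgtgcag
Bcl2l11, chr2:128147150-128147176, plus strand: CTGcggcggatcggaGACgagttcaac
Bid, chr6:120897289-120897315, minus strand: CTCgcccaaataggcGATgagatggac
Bad, chr19:6950792-6950818, plus strand: CTCcgaaggatgagcGATgagtttgag
Bbc3, chr7:16313773-16313799, plus strand: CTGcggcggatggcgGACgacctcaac
Bax, chr7:45465997-45466023, minus strand: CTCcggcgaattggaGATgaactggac
Bak1, chr17:27022531-27022557, minus strand: CTTgctctcatcggaGATgatattaac

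Bcl2l2 alone begins this stretch with a methionine codon in place of leucine. Bad has a serine codon and Bbc3 an alanine codon before the aspartate, where the other members have glycine.

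The deposited values are estimated counts that sum to between 21634080 and 42391328 in a mouse. Levels are given as CPM, the counts of a gene scaled to a common library size after TMM normalization. The targeted gene, Igf1r, had a mean of 53.6 CPM in the βIgf1r and of 50.7 CPM in the βIgf1rKD mice (SD 7.21 and 4.996), and its log2 fold change was -0.08 with a standard error of 0.11 (edgeR unadjusted p = 0.483). The groups overlapped, so that a lower receptor is not shown by these counts, which cover the whole gene and not exon 3 alone. By other measures, in mice of other age ranges, the study reports less Igf1r mRNA (qPCR) and IGF1R protein (Western blot) in βIgf1rKD islets. A list of 8 β-cell genes took 8.66% to 18.7% of the counts in every mouse, and a list of 16 acinar genes took 2.66% to 18.6% in βIgf1r and 5.51% to 22.1% in βIgf1rKD mice. All 16 acinar genes had a positive log2 fold change, from 0.69 to 1.39, and 0 of them an unadjusted p under 0.05. The 11 endothelial genes all had a negative one, from -0.38 to -0.05, and 5 of them an unadjusted p under 0.05. Of 10 leukocyte genes 8 were higher, with Tyrobp at an unadjusted p under 0.05, and of 8 stellate and fibroblast genes 5 were higher and 3 lower, with Rgs5 lower at that threshold. Of 5 duct genes 4 were higher, of 5 alpha cell genes 2, of 3 delta cell genes 0, and the PP cell gene Ppy was lower, with 0 genes of these 4 lists under 0.05. Among all genes tested, 4.12% had an unadjusted p under 0.05. The part of these cells in the results below was not tested beyond the covariates named with them. In a whole islet preparation, fewer cells of a type and less RNA in each cell cannot be told apart.

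All 10 members were expressed in all 8 mice and passed the filter on low counts. Per kilobase of exon, in CPM per kb, Bax was highest at a mean of 22.0 ± 3.41 (SD over 8 mice), followed by Mcl1 at 20.5 ± 1.83 and Bcl2l2 at 19.4 ± 2.42. These levels did not differ beyond their spread, since Bax lay above Mcl1 in 5 mice of 8 and Mcl1 above Bcl2l2 in 6. Bcl2l1 followed at 8.32 ± 0.471 and Bad, the sensor that AKT phosphorylates, at 4.81 ± 0.650, each step down seen in 8 mice of 8. Bak1 at 2.98 ± 0.346 and Bbc3 at 2.76 ± 1.04 overlapped, with Bak1 higher in 6 mice, and Bbc3 lay above the next gene in 7. Bcl2l11 at 1.66 ± 0.172 and Bid at 1.29 ± 0.131 came next, with Bcl2l11 above Bid in 7 mice. Bcl2, for which the family is named, was lowest in every mouse at 0.486 ± 0.0907, and Bax lay 45.2-fold above it on this scale. The scale divides by all exonic bases of the annotation, 9157 for Bcl2 and 1576 for Bax, and the transcripts present in islets may be shorter.

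**Figure D1:**
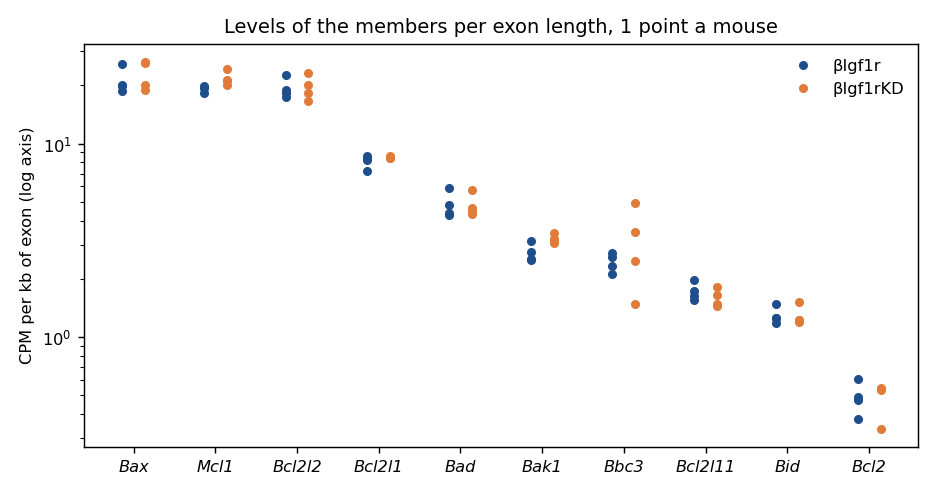
Level of each member in CPM per kilobase of exon (log axis) in the 4 βIgf1r (blue) and 4 βIgf1rKD (orange) mice, ordered by the mean. Bax, Mcl1 and Bcl2l2 overlap at the top, and Bcl2 lies lowest, between 0.335 and 0.608.

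Comparison of the groups asks whether targeting the IGF1 receptor gene in β-cells went with another balance of survival and death genes. By edgeR's quasi-likelihood test over the 15474 genes tested, 0 members passed an adjusted threshold of 0.05, their lowest adjusted p being 0.987. Of all genes 0 (0%) passed by edgeR, while DESeq2 called 8 and limma-voom 1, and no member was among those. At an unadjusted p under 0.05, which is the threshold in the study's statistics section, 1 member of 10, Mcl1, passed, where 637 of all genes (4.12%) did. Mcl1 was also the 1 member whose groups did not overlap in log2 CPM, a property of 344 genes (2.22%). By log2 fold change 8 members were higher and 2 lower in βIgf1rKD islets, against 8086 higher and 7388 lower of all genes. The median over the members was 0.05, and over all genes 0.01. With the acinar marker score as a covariate 0 members passed, and Mcl1 had a log2 fold change of 0.17 (unadjusted p = 0.108). With the endothelial score, which does not overlap between the groups, it had 0.14 (unadjusted p = 0.353).

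**Figure D2:**
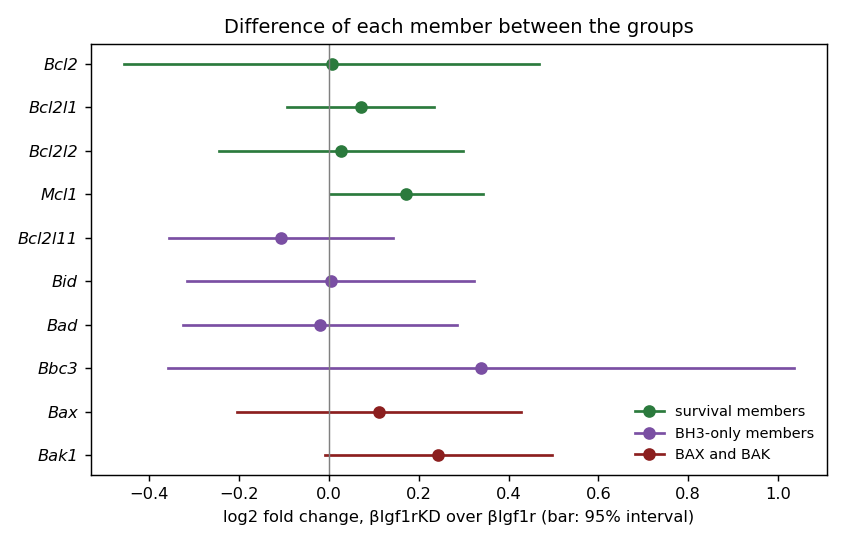
Log2 fold change of each member, βIgf1rKD over βIgf1r, with its 95% interval from edgeR (n = 4 mice a group), coloured by role. The interval of Mcl1 lies just above 0, from 0.0024 to 0.34, and those of the other 9 members include 0.

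Mcl1 encodes a short-lived survival protein that binds BIM and BAK. Its gene spans chr3:95658788-95663176 (GRCm38, plus strand). In mice M148, M151, M152 and M153 of the βIgf1r group, in this order here and below, it was at 67.1, 66.0, 62.2 and 67.8 CPM. In mice M145, M146, M149 and M150 of the βIgf1rKD group, again in this order throughout, it was at 82.9, 71.8, 73.2 and 68.7 CPM. The groups were separate, with M150 and M153 the closest pair. The mean went from 65.8 ± 2.51 to 74.1 ± 6.14 CPM (SD, n = 4 each), a log2 fold change of 0.17 (standard error 0.08; edgeR unadjusted p = 0.0474, adjusted p = 0.987), or 1.13-fold with a 95% interval of 1.002 to 1.27. This call is at the edge of its threshold, since it is lost without any 1 of the mice other than M150 (unadjusted p from 0.0516 to 0.143, the last without M145), and with limma-voom on all mice (unadjusted p = 0.0576).

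Bcl2l1, whose main product Bcl-xL protects mature β-cells, had the steadiest level of the family in βIgf1rKD islets. Its CPM was 39.6, 37.9, 38.4 and 33.0 in βIgf1r mice and 38.8, 39.1, 39.7 and 38.9 in βIgf1rKD mice. The βIgf1rKD mice lay between 38.8 and 39.7 CPM, and M153 was the one low mouse of the βIgf1r group. The log2 fold change was 0.07 (95% interval -0.09 to 0.23), and the upper end of this interval is a 1.18-fold higher level. Gene counts do not separate the long survival form from the short form of this gene.

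Bcl2l2, the gene for Bcl-w, was at 84.1, 77.4, 101 and 81.4 CPM in βIgf1r and at 90.1, 104, 74.5 and 81.7 CPM in βIgf1rKD mice. The groups overlapped, with M146 highest and M149 lowest of all 8. The log2 fold change was 0.03 (95% interval -0.25 to 0.30). A read-through gene, Gm20521, shares exons with Bcl2l2 on the same strand but took at most 12 counts in a mouse, against at least 1711 for Bcl2l2.

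For Bcl2 itself the counts were low, from 86 to 202 in a mouse. The CPM was 3.46, 5.57, 4.31 and 4.46 in βIgf1r and 4.91, 3.07, 4.88 and 4.98 in βIgf1rKD mice. Of the βIgf1rKD mice 3 were nearly alike and M146 lay apart below all others. Group means of 4.45 ± 0.865 and 4.46 ± 0.927 CPM (SD, n = 4 each) gave a log2 fold change of 0.01 with a 95% interval of -0.46 to 0.47. Levels in βIgf1rKD islets from 0.729-fold to 1.38-fold of those in βIgf1r islets lay within this interval and were not excluded. The sign turned with each of 4 covariates and without any 1 of 5 mice.

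**Figure D3:**
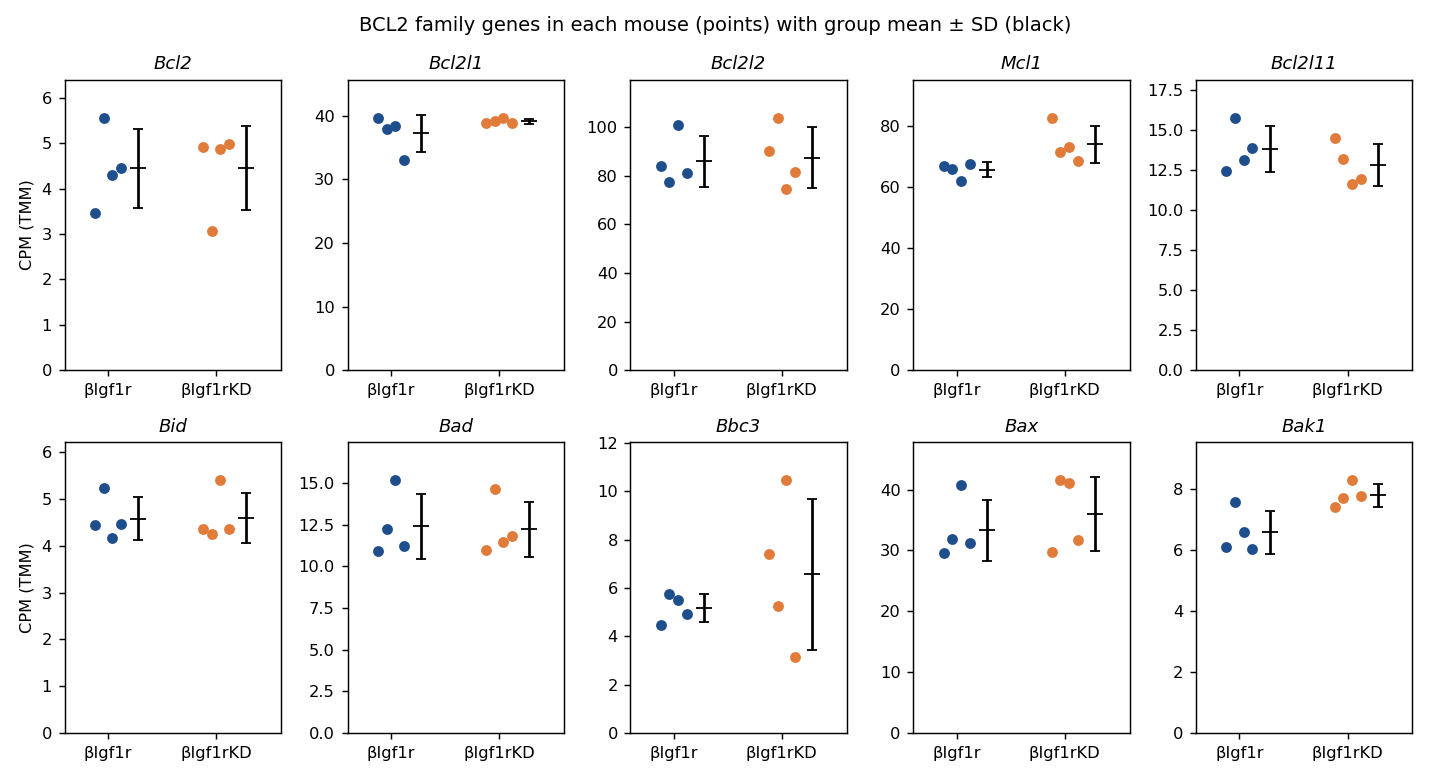
CPM of each member in every mouse, βIgf1r in blue and βIgf1rKD in orange, with the group mean and SD in black; each vertical axis starts at 0 and has its own scale. Mcl1 is the 1 panel whose groups do not overlap, and Bbc3 has the widest spread, from 3.16 to 10.5 in βIgf1rKD mice.

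Among the BH3-only genes Bbc3, which encodes PUMA, a direct target of p53, varied most. Its CPM was 4.47, 5.75, 5.48 and 4.93 in βIgf1r mice, a narrow range, and 7.39, 5.25, 10.5 and 3.16 in βIgf1rKD mice. The βIgf1rKD group held the highest mouse, M149, and the lowest, M150, with a 3.31-fold range, and the SD of log2 CPM was 0.73 against 0.16 in the βIgf1r group. The log2 fold change was 0.34 (standard error 0.31, 95% interval -0.36 to 1.04; edgeR unadjusted p = 0.304). The value moved most, and in opposite directions, when M150 or M149 was left out. Without M150 the log2 fold change was 0.57 (unadjusted p = 0.0331), and without M149 it was 0.02 (unadjusted p = 0.944). M149 had the most acinar RNA of the 8 mice, 22.1% of its counts, and M145, the next in Bbc3, had 19.8%. In the βIgf1r mice, in the order above, acinar genes took 2.66%, 4.48%, 18.6% and 11.6% of the counts. In the βIgf1rKD mice they took 19.8%, 5.51%, 22.1% and 15.1%. M152, at 18.6%, had Bbc3 at 5.48 CPM. With the acinar score as a covariate the log2 fold change was 0.14, but limma-voom without a covariate gave 0.12 and Xist as a covariate 0.44. The part of acinar cells was not tested further. Trp53, the gene for p53, was at 17.9 CPM in βIgf1r and 21.8 CPM in βIgf1rKD islets, and its log2 fold change was 0.29 (95% interval -0.02 to 0.59).

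Bcl2l11 encodes BIM, which binds all survival members and is raised by FOXO factors when growth factors are withdrawn. Its CPM was 12.4, 15.8, 13.1 and 13.8 in βIgf1r and 14.5, 13.2, 11.6 and 11.9 in βIgf1rKD mice. M149 and M150 lay below all βIgf1r mice and the others within their range. It was the member with the most negative log2 fold change, -0.11 (standard error 0.11, 95% interval -0.36 to 0.14; edgeR unadjusted p = 0.359). Once the endothelial score was added to the fit the value was -0.41 (unadjusted p = 0.0312), a fit in which the covariate and the groups go together, as every βIgf1rKD mouse had a lower endothelial score than any βIgf1r mouse. Foxo1, Foxo3 and Foxo4 had log2 fold changes of -0.12 (95% interval -0.28 to 0.04), 0.23 (95% interval -0.06 to 0.52) and 0.15 (95% interval -0.05 to 0.35).

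Bad was at 10.9, 12.3, 15.2 and 11.2 CPM in βIgf1r and 10.99, 14.6, 11.45 and 11.8 CPM in βIgf1rKD mice. Each βIgf1rKD mouse fell within the range of the βIgf1r mice, and the log2 fold change was -0.02 (95% interval -0.33 to 0.29). Bid, which caspase-8 cuts to carry death receptor signals to the mitochondrion, was at 4.45, 5.24, 4.17 and 4.46 CPM and at 4.35, 4.25, 5.40 and 4.36 CPM. M151 and M149 were the high mice of their groups, and the log2 fold change was 0.00 (95% interval -0.32 to 0.32). On the opposite strand Bcl2 overlaps D630008O14Rik, Bid overlaps Bcl2l13, Bad overlaps Gpr137 and Bak1 overlaps Ggnbp1, and 6.21%, 16.9%, 18.4% and 20.4% of their 31-base words occur in transcripts of other genes. The libraries kept strand, but whether counting used it is not given in the sources used here, so that these 4 genes are uncertain to that extent. Their estimated counts were not whole, by more than 0.01, in 0 of the 8 mice. The part of the shared sequence in their values was not tested.

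Of the executioners, Bak1 came closest to the threshold after Mcl1. Its CPM was 6.10, 7.57, 6.59 and 6.02 in βIgf1r mice and 7.39, 7.68, 8.27 and 7.77 in βIgf1rKD mice. M151 was the 1 mouse of the βIgf1r group that reached the level of the βIgf1rKD group, above M145 and below the other 3. The mean went from 6.57 ± 0.712 to 7.78 ± 0.366 CPM (SD, n = 4 each), a log2 fold change of 0.24 (standard error 0.11, 95% interval -0.01 to 0.50; edgeR unadjusted p = 0.0578, adjusted p = 0.987). Without M151 the value was 0.32 (unadjusted p = 0.0197), with limma-voom on all mice 0.25 (unadjusted p = 0.0483), and with the endothelial score as a covariate 0.08 (unadjusted p = 0.691).

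Bax was high in some mice of both groups and lower in the rest. It was at 29.6, 31.9, 40.7 and 31.2 CPM in βIgf1r and at 29.8, 41.5, 41.0 and 31.7 CPM in βIgf1rKD mice. M152, M146 and M149 lay between 40.7 and 41.5 CPM, while the other mice lay between 29.6 and 31.9. The log2 fold change was 0.11 (standard error 0.14, 95% interval -0.20 to 0.43). The estimated counts of Bax were not whole, by more than 0.01, in 8 mice of 8, as happens where reads are divided between genes, and the same held for Bcl2l2 in 2 mice and Bcl2l11 in 3. Gm45808, a read-through gene on the same strand, took 6 to 23 counts against 637 to 1287 for Bax, and adding them left the log2 fold change at 0.11.

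To set survival against death genes within a library, 4 ratios were tested by permuting the mice between the groups in all 70 ways (exact, two-sided). The log2 ratio of Mcl1 to Bcl2l11 was 2.43, 2.06, 2.24 and 2.29 in βIgf1r and 2.51, 2.44, 2.65 and 2.52 in βIgf1rKD mice. It was higher in each βIgf1rKD mouse than in any βIgf1r mouse, M146 and M148 being close. The means were 2.25 ± 0.15 and 2.53 ± 0.09 (SD, n = 4 each), a difference of 0.28 (exact permutation p = 0.0286, which 4 against 4 mice cannot go below; adjusted over the 4 ratios, p = 0.114). The ratio shares its Mcl1 and Bcl2l11 values with the comparisons above and is not independent of them. There Mcl1 was the 1 member under the unadjusted threshold and Bcl2l11 had the most negative log2 fold change.

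The other ratios differed by less than their spread. Bcl2 to Bax went from -2.90 ± 0.32 to -3.00 ± 0.52 (difference -0.11, exact permutation p = 0.800). Bcl2l1 to Bax went from 0.17 ± 0.22 to 0.13 ± 0.24 (difference -0.03, exact permutation p = 0.914). For Bcl2l1 to Bad the values were 1.59 ± 0.21 and 1.68 ± 0.18 (difference 0.09, exact permutation p = 0.514). These 3 had an adjusted p of 0.914.

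**Figure D4:**
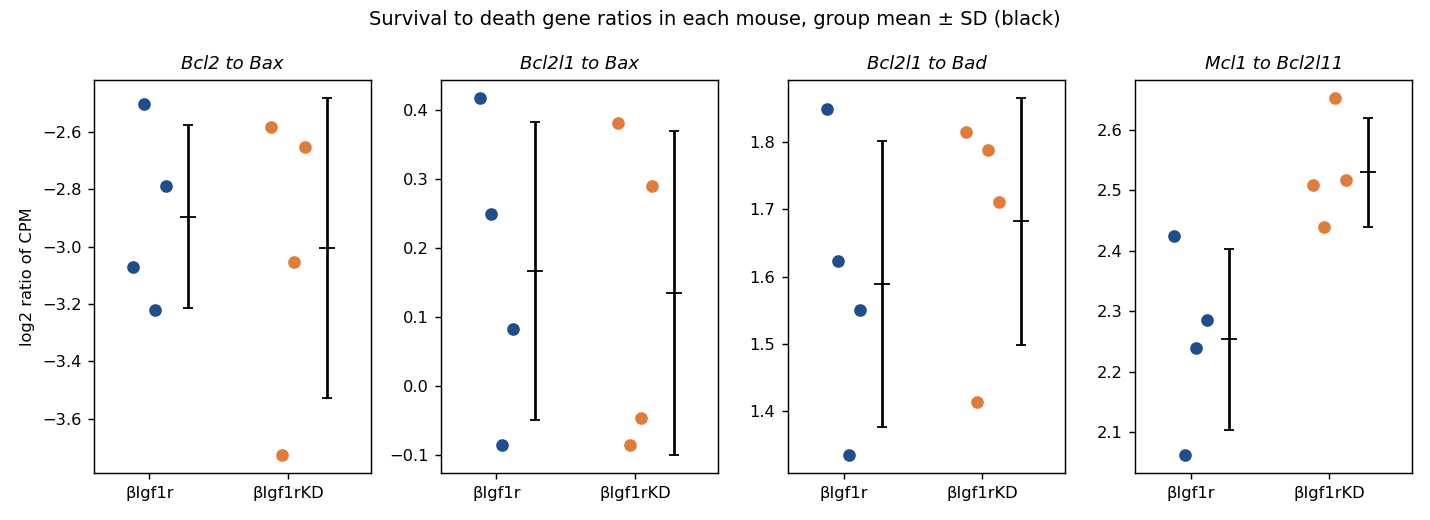
Log2 ratio of the CPM of a survival gene to that of a death gene in each mouse, with the group mean and SD (n = 4) in black. The groups do not overlap for Mcl1 to Bcl2l11, with a difference of 0.28, and overlap for the other 3 ratios.

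Over the 8 mice, 30 of the 45 pairs of members had a positive and 15 a negative Pearson correlation of log2 CPM, and 0 passed after adjustment over the 45 pairs (smallest adjusted permutation p = 0.554). The 3 pairs with the largest r all involved Bcl2l2 or Bad. Bcl2l2 and Bid went in opposite directions (r = -0.791, exact permutation p = 0.0330; rho = -0.952, exact permutation p = 0.00114, adjusted p = 0.0513), and r was -0.855 without M152 and M146, the mice farthest from the median of Bcl2l2. Bcl2l2 and Bad had r = 0.757 (exact permutation p = 0.0369, adjusted p = 0.554) and rho = 0.286 (exact permutation p = 0.501), which rests on the same 2 mice, as r was -0.614 without them. Bad and Bax had r = 0.748 (exact permutation p = 0.0342, adjusted p = 0.554) and rho = 0.810 (exact permutation p = 0.0218, adjusted p = 0.490), and r was 0.241 without M152 and M146. With each group centred on its mean the 3 values of r were -0.794, 0.763 and 0.790. Groups of 4 mice are too few for a correlation within each.

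**Figure D5:**
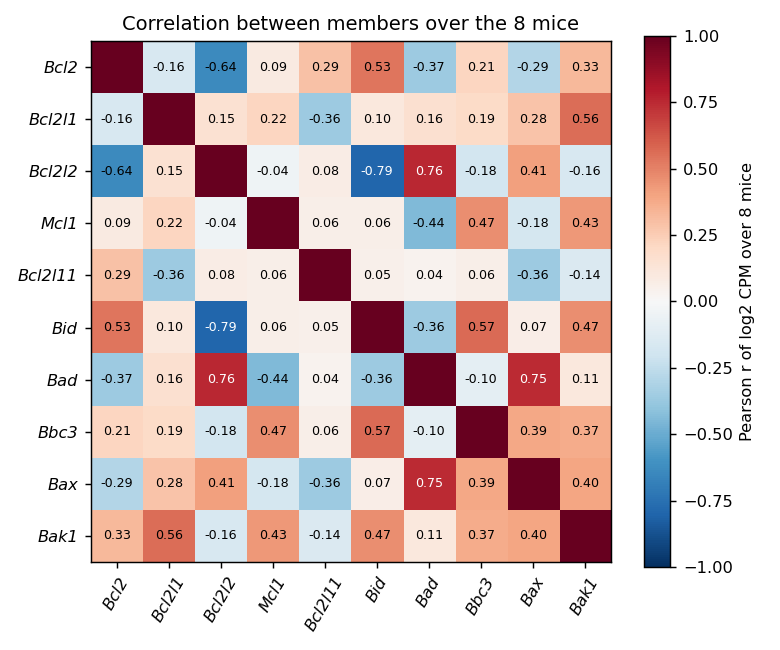
Pearson r of log2 CPM over the 8 mice for each pair of members, from -1 (blue) to 1 (red). The strongest pairs are Bcl2l2 with Bid at -0.791 and Bcl2l2 with Bad at 0.757, and 0 of the 45 pairs passed after adjustment.

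Of 15 other genes of the family, 10 had enough counts to be tested, 6 with a positive and 4 with a negative log2 fold change and 0 with an unadjusted p under 0.05. The mitophagy receptors Bnip3 and Bnip3l, at 58.7 and 52.6 CPM in βIgf1r islets, and the mitochondrial protein gene Bcl2l13, at 41.3 CPM, were the most abundant, with log2 fold changes of -0.13, -0.11 and 0.03. Bmf, a BH3-only gene, was at 6.76 CPM in βIgf1r and 5.71 CPM in βIgf1rKD islets (log2 fold change -0.25, 95% interval -0.64 to 0.14). Bok, an executioner related to Bax, was at 2.21, 3.35, 5.73 and 2.84 CPM in βIgf1r and at 4.40, 3.36, 11.6 and 3.60 CPM in βIgf1rKD mice. Its log2 fold change of 0.69 (95% interval -0.30 to 1.69) came with 1 high mouse, M149. Bik, the p53 target Pmaip1, Bcl2l12, Bcl2l14 and Bcl2a1b lay at 3.32 CPM or less in βIgf1r mice, with log2 fold changes between -0.13 and 0.36. Bcl2a1a, Bcl2a1d, Hrk and Bcl2l15 had at most 19 counts in a mouse, and Bcl2l10 was at 0 counts in all 8. The Bcl2a1 genes are near-identical copies whose reads counting could have split in either direction.

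Outside the family, 21 genes of the mitochondrial death pathway were measured, not all of them downstream of BAX and BAK. Among them were the apoptosome genes Apaf1, Cycs and Casp9, the executioner caspases and their inhibitors. By log2 fold change 15 were higher and 6 lower, with a median of 0.04, and 0 had an unadjusted p under 0.05. Their log2 fold changes ran from -0.17 for Birc6 to 0.68 for Birc5, which had at most 22 counts in a mouse. Of 10 genes of the death receptor arm, which reaches the family through Bid, 7 were higher and 3 lower. Where 4.12% of all genes had an unadjusted p under 0.05, 1 of these 10 had one. This was Tnfrsf1a, the main TNF receptor, at 37.1 CPM in βIgf1r and 43.2 CPM in βIgf1rKD islets without overlap (log2 fold change 0.22, standard error 0.08; edgeR unadjusted p = 0.0211, adjusted p = 0.987). Of all genes 2.22% were without overlap. The log2 fold changes of this list ran from -0.12 for Fadd to 0.27 for Tnfrsf10b.

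Of 30 genes that act on the members from above or bind them, 29 were tested. The exception was Ddit3, a symbol shared by a pair of identifiers. By log2 fold change 17 were higher and 12 lower, with a median of 0.05. Of these 29 genes 2 had an unadjusted p under 0.05, both higher, where 4.12% of all genes had one. Bag3, a co-chaperone that binds BCL2, went from 17.4 to 21.9 CPM without overlap (log2 fold change 0.33, standard error 0.10; edgeR unadjusted p = 0.00724, adjusted p = 0.987). Groups without overlap were seen in 2.22% of all genes. Jun, a transcription factor of the stress kinase pathway that can act on Bcl2l11 and Bbc3, went from 17.1 to 22.4 CPM (log2 fold change 0.39, standard error 0.16; edgeR unadjusted p = 0.0397, adjusted p = 0.987), and its groups overlapped. Akt1 had a log2 fold change of 0.23 (95% interval -0.05 to 0.50). The lowest value of the list was -0.19, for Usp9x, which encodes an enzyme that removes ubiquitin from MCL1.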

How the data were processed

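Islet RNA of 4 βIgf1r and 4 βIgf1rKD mice was sequenced from stranded mRNA libraries, 1 for each mouse. The authors deposited estimated counts per Ensembl gene, unscaled, and the submitters' processing notes name fastp, kallisto and GRCm38. Versions and the annotation release are not given in the sources used here. Columns were matched to mice by number. Estimated counts were rounded, 51906 of 53012 identifiers were given a symbol, and edgeR 4.0.16 (R 4.3.3) kept 15474 genes (default filter, minimum count 10, minimum total 15), scaled them by TMM and compared the groups by its quasi-likelihood test with Benjamini-Hochberg adjustment over all genes. Standard errors come from the fold change and F, and log2 CPM uses a prior count of 2. Ratios were compared by exact permutation. Alternatives were RLE factors, DESeq2 1.42.0, limma-voom (limma 3.58.1), other filters, a prior count of 0.5, marker or Xist covariates and each mouse left out. Coordinates and exon lengths are from GENCODE M21, and shared sequence was counted as 31-base words over its transcripts. Scripts were tested on simulated counts. The members and lists were chosen with earlier results of these data known. Named are all members, all listed other family genes, genes of the 3 pathway lists at an unadjusted p under 0.05 or at an end of their list's range, and the 3 pairs with the largest r. Marker lists are given by counts and ranges. Trp53, Foxo1, Foxo3, Foxo4 and Akt1 fall outside this rule and were named for their role after their values were seen. Separate mice are the replicates.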

Additional observations from a re-analysis of the deposited data

Results flagged for a closer look

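In 28 sets of 4 mice, the members and their 4 ratios in each group, 2 held 1 mouse that stood apart. About 1.4 such sets, or 1 in 20, are due by chance. Bcl2 in the βIgf1rKD group was at a log2 CPM of 1.65 in M146 against 2.31 to 2.34 in the others, a gap of 0.955 of the group's range. Bid in the βIgf1rKD group was at 2.45 in M149 against 2.11 to 2.15, a gap of 0.887 of the range.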

How the results depend on the processing

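The count of members at an unadjusted p under 0.05, 1 as reported, was 0 without the filter, with a minimum of 10 counts in each mouse, or with Xist, the acinar score or the β-cell score as a covariate, and between 0 and 2 with a mouse left out. It stayed 1 with another member in place of Mcl1 under limma-voom (Bak1), the endothelial score (Bcl2l11) and without M151 (Bak1). All genes at an adjusted p under 0.05 numbered 0 by edgeR, 8 by DESeq2 and 1 by limma-voom. Bcl2 changed sign with Xist (-0.029), the acinar (-0.15), endothelial (-0.46) and β-cell score (-0.054) as a covariate, and Bid with limma-voom (-0.0062), the endothelial (-0.063) and the β-cell score (-0.012). The causes were not tested. With a mouse left out, log2 fold changes ranged from -0.10 to 0.15 for Bcl2, -0.068 to 0.11 for Bcl2l2, -0.082 to 0.074 for Bid, -0.12 to 0.092 for Bad, 0.12 to 0.21 for Mcl1, 0.02 to 0.57 for Bbc3, 0.20 to 0.32 for Bak1, 0.015 (without M153) to 0.10 for Bcl2l1, -0.17 to -0.036 (without M151) for Bcl2l11 and 0.035 (without M146) to 0.22 (without M152) for Bax. Ratios ranged from -0.25 to 0.13 for Bcl2 to Bax, -0.12 to 0.053 for Bcl2l1 to Bax, 0.0078 to 0.18 for Bcl2l1 to Bad and 0.21 to 0.33 for Mcl1 to Bcl2l11 (exact permutation p from 0.0286 to 0.0571). The β-cell covariate and the sums with read-through genes were added after the data were examined. No paired analysis was possible because no mouse number occurs in both groups.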

Other observations

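Mouse M149 of the βIgf1rKD group, named here because of its values, was highest of the 8 mice in some members. It was lowest in others and neither in the rest. It was highest in the BH3-only genes Bbc3 at 10.5 CPM and Bid at 5.40 CPM and in the executioner Bak1 at 8.27 CPM. In the survival gene Bcl2l1 it was highest by little, at 39.7 CPM against 39.6 CPM in M148. M149 was also highest in Bok at 11.6 CPM, Bik at 3.40 CPM, Bcl2l12 at 1.61 CPM and Bcl2l14 at 1.70 CPM. Bcl2l2 at 74.5 CPM and Bcl2l11 at 11.6 CPM were lowest in it, as was Bcl2l13 of the other family genes at 37.0 CPM. How often this mouse was highest or lowest among all genes was not counted. The same mouse had the largest share of acinar counts, 22.1%. Its mean z-scores of leukocyte markers, 1.31, duct markers, 1.17, and stellate and fibroblast markers, 0.894, were the highest. By share of counts it was not highest for 2 of these lists. Leukocyte genes took 0.0322% in M149 against 0.0473% in M151, and duct genes 0.0235% in M149 against 0.0254% in M146. The mean z-scores of alpha, delta and PP cell markers in M149, -1.02, -1.09 and -1.40, were the lowest. The part of these cells in the values was not tested.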
